A study of Mus musculus with 6 samples.

Results

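Vps72 (also called YL1) and 8 further subunits of the complexes that exchange H2A for the histone variant H2A.Z were examined across 6 arrays of mouse blood stem and progenitor cells. The members were chosen by gene symbol, and Vps72 itself was selected on its measured values, because it stood apart in LSCs from both other groups. All 9 genes, of 19934 genes with values and an unambiguous symbol, were represented by 1 probe set each: Vps72, Srcap, Ep400, Ruvbl1, Ruvbl2, Yeats4, Actr6, Znhit1 and Dmap1. Their Entrez identifiers led to the same symbols in RefSeq for 9 of 9 genes.

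In the exchange reaction, a nucleosome loses an H2A-H2B dimer and receives an H2A.Z-H2B dimer, driven by ATP. In mammals this is done by the SRCAP complex and by the TIP60/p400 complex, which share several subunits, and Vps72 is the shared subunit that binds the incoming H2A.Z-H2B dimer. H2A.Z is found beside transcription start sites and at enhancers, and its deposition has been linked to gene activity and to the differentiation of stem cells, blood lineages included.

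The cells were GFP-positive, lineage-negative, c-Kit-positive and Sca-1-positive bone marrow cells, sorted 14 days after transplantation. Donor marrow came from 5-FU-treated C57BL/6 (B6) or Alox5-/- mice, was transduced with a retrovirus and was given to B6 recipients. The age label on every sample was 8 weeks. HSC denotes wild-type cells not expressing BCR-ABL, whose sample descriptions name a vector. LSC (leukaemia stem cells) denotes wild-type cells with BCR-ABL and GFP, a model of chronic myeloid leukaemia in which a virus rather than a chromosome translocation supplies the kinase. Alox5-/- LSC denotes BCR-ABL cells that also lack Alox5, the gene of arachidonate 5-lipoxygenase. Each group had 2 arrays, given as biological replicates. The number of animals behind an array is not given in the sources used here, and p-values measure only the spread between these arrays. Fewer cells of a type and less RNA per cell cannot be told apart in such bulk samples.

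The deposited value is a score whose unit is not stated, and its scale governs how every value below is read. Scores ran from 0 to 62.1, beyond the range of log2 expression, and array medians ran from 14.5 (Alox5-/- LSC replicate 2) to 16.4 (HSC replicate 2). The scores did not order genes as transcript abundance would. Probe sets of 18 genes that every cell uses, such as Actb and ribosomal protein genes, had a median score of 11.0, at percentile 16.2 of all probe sets. Probe sets of 1026 olfactory receptor genes, which are silent in most tissues, had a median of 16.1, at percentile 56.0. A higher score therefore cannot be read as more transcript, and "higher" and "lower" below refer to the score alone. For the same reason the sorting gate could not be checked by level. Kit scored 10.5 to 15.4 over the arrays, and Ly6a, which encodes Sca-1, was not matched to a probe set here.

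Vps72 had high scores on both LSC arrays and low scores on the other 4. It stood at 8.77 and 8.48 on the HSC arrays, at 16.5 and 17.3 on the LSC arrays, and at 7.75 and 9.86 on the Alox5-/- LSC arrays. The LSC arrays did not overlap with any other array. Relative to the 21601 probe sets with values and 1 symbol on the same array, Vps72 lay at percentiles 56.7 and 66.6 in LSCs. It lay at percentiles 1.84 and 1.65 in HSCs and at 1.57 and 5.51 in Alox5-/- LSCs. The group means were 8.63 ± 0.20 (SD, n = 2) in HSCs, 16.94 ± 0.58 in LSCs and 8.81 ± 1.498 in Alox5-/- LSCs. The LSC mean was thus higher than the HSC mean by 8.31 and higher than the Alox5-/- LSC mean by an amount that appears as -8.14 in the difference Alox5-/- LSC minus LSC. These differences chose the gene and are a description without a test, and they share the LSC arrays.

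Vps72 was not the most extreme gene by size. Ranked by the smaller of its differences among probe sets with opposite signs in LSC minus HSC and Alox5-/- LSC minus LSC, it came in place 6. Txlng (12.30 and -11.05), Otulinl, Abhd18, Rhag and 1700025G04Rik came before it, and Kynu (9.16 and -7.92) came next. Its replicates lay close together, with a pooled within-group SD of 0.93, at percentile 27.1 of all probe sets tested, and were farthest apart in Alox5-/- LSCs. Over all probe sets tested, however, replicates were no more alike than arrays of different groups. Pearson's r between replicates was 0.73 in HSCs, 0.77 in LSCs and 0.75 in Alox5-/- LSCs. Between groups it ran from 0.70 to 0.80, highest for LSC replicate 1 with Alox5-/- LSC replicate 2.

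**Figure D1:**
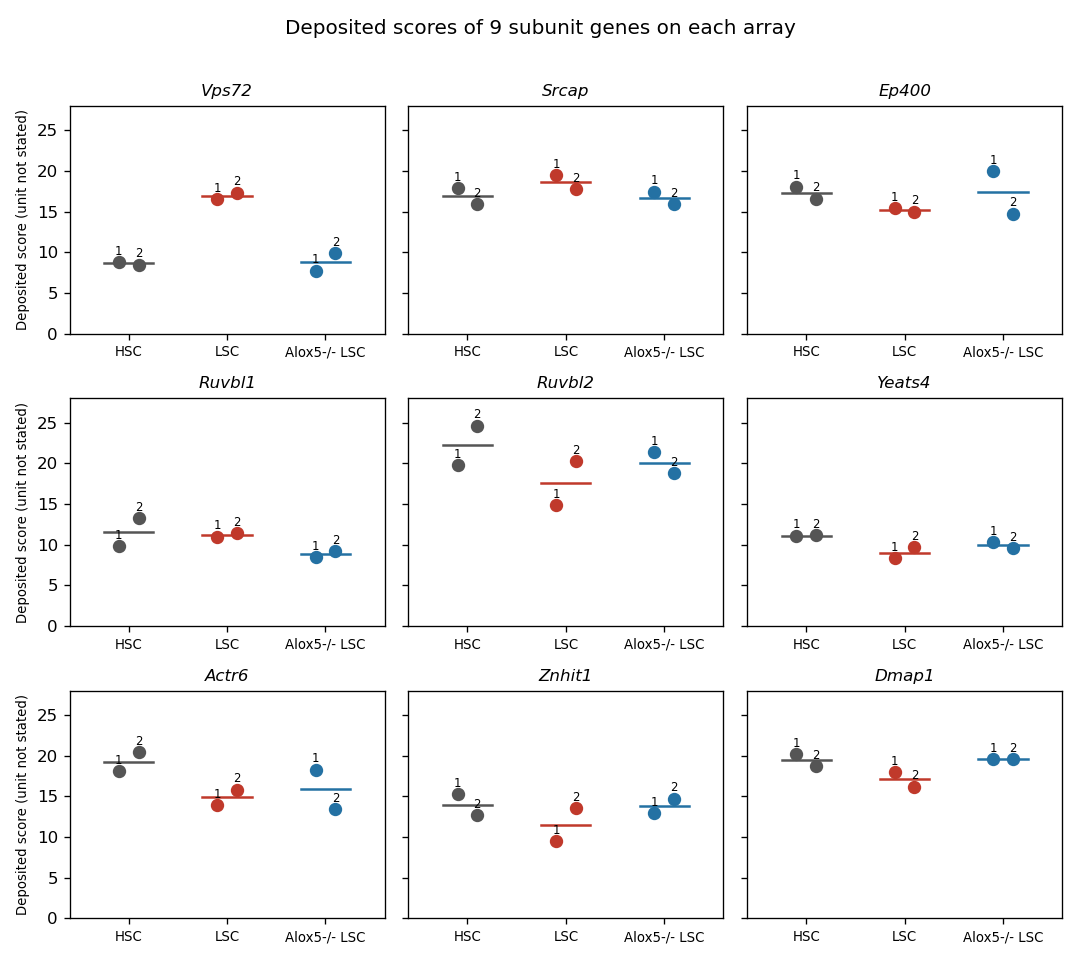
Deposited score (vertical axis, unit not stated) of each of the 9 genes on each array, by group (horizontal axis). Points are arrays labelled with their replicate number and lines are group means; Vps72 is high on both LSC arrays, while Srcap is the only other gene whose LSC mean exceeds both other means, with overlapping arrays.

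The other 8 subunits did not follow Vps72: most had the opposite sign, and none differed between groups at a level the arrays could resolve. In LSC versus HSC, 7 of the 8 had lower mean scores in LSCs and only Srcap a higher one, beside 62.9% of all probe sets below 0, and each of the 8 confidence intervals included 0. None passed, by limma with Benjamini-Hochberg adjustment over 21601 probe sets, where 0% of all probe sets passed and the smallest adjusted p of a member was 0.999. At an unadjusted p under 0.05 there were 0 of the 8 members, against 4.78% (1033) of all probe sets. The groups did not overlap for 4 of the 8 (Ep400, Yeats4, Actr6 and Dmap1), against 34.4% of all probe sets, a share that makes 4 of 8 unremarkable. The members' median difference was -2.24, beside -0.47 over all probe sets. With each array centred on its median the members' median was -1.70 beside 0.07 for all probe sets. Then 6 of the 8 were below 0, beside 48.1% of all probe sets, Ruvbl1 having changed sign.

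In Alox5-/- LSC versus LSC mean scores were higher in Alox5-/- LSCs for 6 of the 8 members and lower for Srcap and Ruvbl1. Of all probe sets 58.3% were lower in Alox5-/- LSCs. Again 0 of the 8 passed by limma after adjustment, as did 0% of all probe sets, and 0 of the 8 had an unadjusted p under 0.05, against 3.48% (751) of all. The groups did not overlap for 3 of the 8 (Srcap, Ruvbl1 and Dmap1), against 30.7% of all probe sets. The members' median difference was 1.57, beside -0.29 over all probe sets. The members' median changed when single arrays were left out, and the background moved as well. Without Alox5-/- LSC replicate 1 it was 0.06, with 4 members above 0 and 4 below. All probe sets then had a median of -0.92, with 73.0% below 0. Without LSC replicate 1 the members' median was 0.16, with 5 above and 3 below, beside -0.27 and 56.5% below 0 for all. After centring of the arrays it was 1.92, beside 0.06 for all probe sets. This comparison shares its LSC arrays with the first, so an LSC score that is low on its own gives opposite signs in the pair of comparisons.

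A single contrast, LSC against the mean of HSC and Alox5-/- LSC, uses the LSC arrays once and matches the Vps72 pattern, for which the difference was 8.22. Of the other 8 members, 6 were below 0 in this contrast and 2 (Srcap and Ruvbl1) above it. Of all probe sets 53.9% were below 0. The members' median was -2.26 beside -0.11 over all probe sets. Leaving out LSC replicate 1 brought the members' median to -0.85, beside -0.15 for all probe sets. Leaving out Alox5-/- LSC replicate 1 brought it to -1.40, beside 0.19. By limma 0 of 8 passed after adjustment (0% of all probe sets) and 0 of 8 had an unadjusted p under 0.05 (3.1% of all, 669 probe sets). Both LSC arrays lay outside the range of the other 4 for Dmap1 alone among the 8, against 9.81% of all probe sets. The upper limits of the 95% confidence intervals ran from 0.30 (Dmap1) to 4.71 (Srcap) over the 8 members. All were below the 8.22 of Vps72, which was chosen for its size. The intervals were wide, and none shows that a member stayed the same.

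**Figure D2:**
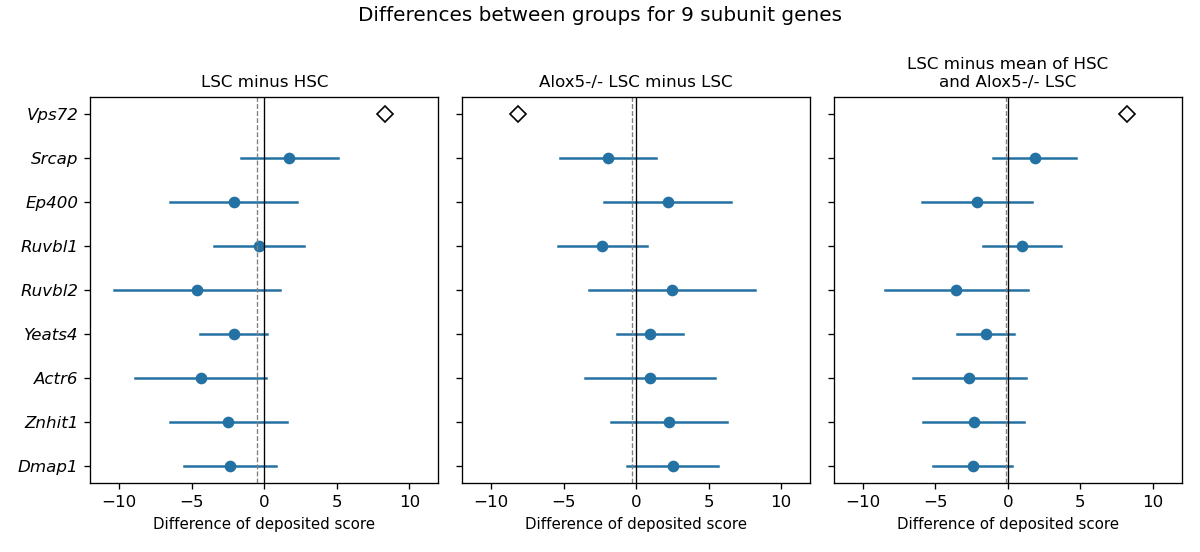
Difference of deposited score (horizontal axes) for each gene in the 3 comparisons. Circles with bars are limma estimates with 95% confidence intervals, the open diamond is Vps72, which was chosen on these values and has no interval, and the dashed line is the median of all probe sets; each of the 8 intervals includes 0 in each comparison.

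Among the motor subunits, Srcap, the ATPase that gives the SRCAP complex its name, came nearest in direction to Vps72. Its scores were 17.9 and 15.9 in HSCs, 19.5 and 17.8 in LSCs, and 17.5 and 15.9 in Alox5-/- LSCs. LSC replicate 1 had the highest score, while LSC replicate 2 lay just below HSC replicate 1, so LSCs overlapped with HSCs and not with Alox5-/- LSCs. Its LSC minus HSC difference was 1.74 ± 1.40 (SE), and Alox5-/- LSC minus LSC was -1.93 ± 1.40, both within the spread between arrays. Ep400, the corresponding ATPase of the TIP60/p400 complex, had scores of 18.1 and 16.6 in HSCs, 15.4 and 15.0 in LSCs, and 20.01 and 14.8 in Alox5-/- LSCs. Its LSC scores were below both HSC scores, and its Alox5-/- LSC arrays lay on either side of them. The contrast of LSC with the mean of the other groups was 1.84 (95% interval -1.04 to 4.71) for Srcap and -2.14 (-5.92 to 1.64) for Ep400, with opposite signs and overlapping intervals.

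Ruvbl1 and Ruvbl2 are related AAA+ ATPases that assemble together into a ring, which serves as a scaffold in SRCAP, TIP60/p400 and INO80. Ruvbl1 scored 9.84 and 13.3 in HSCs, 11.0 and 11.4 in LSCs, and 8.50 and 9.21 in Alox5-/- LSCs. The LSC scores fell between the HSC scores and above both Alox5-/- LSC scores, and Alox5-/- LSC minus LSC was -2.33 (95% interval -5.42 to 0.76). Ruvbl2 scored 19.8 and 24.6 in HSCs, 14.9 and 20.3 in LSCs, and 21.4 and 18.8 in Alox5-/- LSCs. Its LSC replicates differed by more than the group means did, and its pooled within-group SD of 3.14 was at percentile 90.8 of all probe sets tested. The LSC minus HSC difference was -4.63 (-10.34 to 1.08) for Ruvbl2 and -0.37 (-3.47 to 2.72) for Ruvbl1. The Ruvbl1 difference changed sign to 0.17 after centring of the arrays and to 1.35 without HSC replicate 2. For Ruvbl2 it was -7.05 when HSC replicate 1 was left out (limma adjusted p = 0.611) and -7.34 when LSC replicate 2 was left out (adjusted p = 1.00), each at an unadjusted p under 0.05.

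Actr6 (an actin-related protein) and Znhit1 (a zinc finger HIT protein) are subunits of the SRCAP complex. Actr6 scored 18.1 and 20.4 in HSCs, 14.0 and 15.8 in LSCs, and 18.3 and 13.4 in Alox5-/- LSCs. Its HSC arrays were above its LSC arrays, and of its Alox5-/- LSC arrays replicate 1 lay between the HSC scores and replicate 2 below both LSC scores. For Actr6 LSC minus HSC was -4.40 ± 1.89 (SE; 95% interval -8.89 to 0.10), the smallest p among the 8 members. After centring of the arrays it was -3.86 (limma adjusted p = 0.953). The unadjusted p was under 0.05 after centring and when either Alox5-/- LSC array was left out. Alox5-/- LSC minus LSC was 0.98 ± 1.89 for Actr6 and turned to -1.47 without Alox5-/- LSC replicate 1. Znhit1 scored 15.3 and 12.7 in HSCs, 9.52 and 13.6 in LSCs, and 12.9 and 14.7 in Alox5-/- LSCs. All 3 groups overlapped, since its low LSC mean came from replicate 1. The LSC minus HSC difference of Znhit1 was -2.47 ± 1.69 (-6.47 to 1.54). It was -0.45 without LSC replicate 1 and -4.49 without LSC replicate 2, the latter at an unadjusted p under 0.05 (limma adjusted p = 1.00).

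Yeats4 (GAS41, a reader of acylated histone H3 through its YEATS domain) and Dmap1 (a protein first described as a partner of Dnmt1) belong to both complexes. Dmap1 scored 20.2 and 18.7 in HSCs, 18.0 and 16.2 in LSCs, and 19.6 and 19.6 in Alox5-/- LSCs. Both LSC arrays were below the other 4, the mirror image of Vps72, but by a smaller amount. Dmap1 differed by -2.36 ± 1.33 (SE; 95% interval -5.53 to 0.80) in LSC minus HSC and by 2.51 ± 1.33 (-0.65 to 5.68) in Alox5-/- LSC minus LSC. The single contrast was -2.44 (-5.18 to 0.30). Yeats4 scored 11.1 and 11.1 in HSCs, 8.34 and 9.68 in LSCs, and 10.3 and 9.59 in Alox5-/- LSCs. The HSC arrays were above the other 4, and LSCs overlapped with Alox5-/- LSCs. For Yeats4 LSC minus HSC was -2.12 ± 0.96 (-4.40 to 0.17), and its pooled within-group SD of 0.63 was the smallest among the 9 genes.

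**Figure D3:**
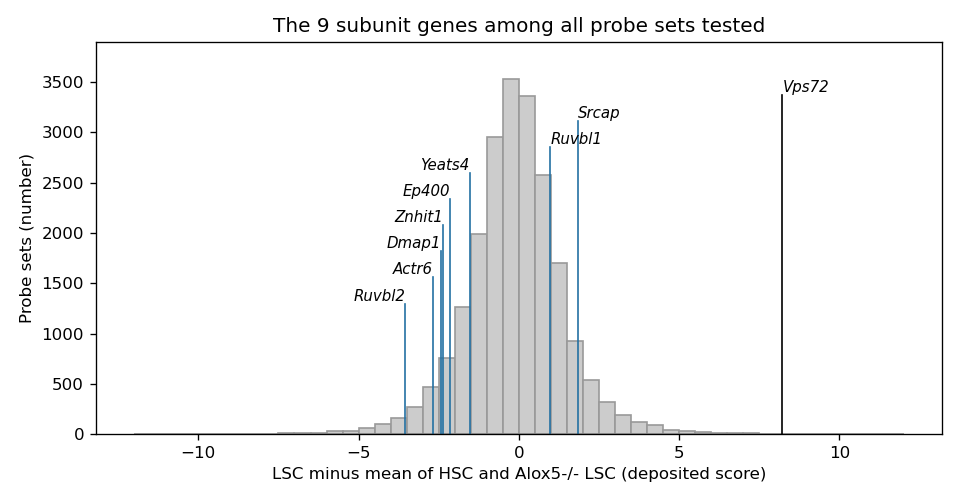
Histogram of LSC minus the mean of HSC and Alox5-/- LSC in deposited score (horizontal axis) over 21601 probe sets (vertical axis, number of probe sets), with vertical lines at the 9 genes (line heights serve only to place the names). Vps72 at 8.22 is in the right tail, whereas the other 8 lie between -3.55 (Ruvbl2) and 1.84 (Srcap).

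Likeness to Vps72 over the 6 arrays was described with Pearson's r, with no test, since 3 groups of 2 arrays underlie every value. Srcap had r = 0.62 and Ruvbl1 r = 0.29. The other members had negative values, from -0.51 for Znhit1 to -0.75 for Yeats4 and -0.87 for Dmap1. Among 21600 other probe sets, 173 had r of at least 0.9 in size. The genes most like Vps72 were E2f5, a transcription factor of the cell cycle (r = 0.99), Mrpl47, a mitochondrial ribosomal protein (0.99), Rmi2, which acts with the BLM helicase (0.98), Fnd3c2 (0.98) and Adam39 (0.98). E2f5 scored 17.1 and 17.3 in HSCs, 20.8 and 21.1 in LSCs, and 17.2 and 17.6 in Alox5-/- LSCs. Being the closest among so many probe sets over 6 arrays, these genes are a description of the table only.

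The genes beside Vps72 on the chromosome were read for the same pattern, and for none of the 6 were both LSC arrays above the other 4. Over all probe sets both LSC arrays lay above or below the other 4 for 9.81%, so 0 of 6 is unremarkable. In the RefSeq annotation of GRCm38.p6, used only for gene order, the 3 nearest protein-coding genes on each side were Zfp687, Psmd4 and Pip5k1a, and Tmod4, Scnm1 and Lysmd1. Tmod4, whose annotated span overlaps that of Vps72, scored 14.3 and 17.0 in HSCs, 14.6 and 16.4 in LSCs, and 13.9 and 11.7 in Alox5-/- LSCs. Pip5k1a, a phosphatidylinositol phosphate kinase, scored 14.3 and 17.5, then 19.2 and 14.2, then 13.0 and 12.5 in the same order of groups. For Tmod4 and Pip5k1a the Alox5-/- LSC arrays were the lowest, and the LSC arrays overlapped with HSCs. LSC minus HSC ran from -3.81 (Zfp687) to 0.80 (Pip5k1a) over the 6 neighbours. Pip5k1a had the signs of Vps72 in all 3 comparisons, at -3.95 ± 1.91 (SE) in Alox5-/- LSC minus LSC and 2.38 ± 1.65 in the single contrast. By limma 0 of 6 had an unadjusted p under 0.05 in any of the 3 comparisons. Of all probe sets 4.78% did in LSC versus HSC, 3.48% in Alox5-/- LSC versus LSC and 3.1% in the single contrast.

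Partner genes of the complexes were read from 5 lists of named subunits. In LSC versus HSC, 2 of 14 probe sets of further SRCAP and TIP60/p400 partners (13 genes) had an unadjusted limma p under 0.05, both with lower LSC scores, and 11 of the 14 were below 0. Of all probe sets 4.78% had such a p, 79.2% of them with lower LSC scores, and 62.9% were below 0. Epc2, an enhancer-of-polycomb subunit of TIP60/p400, scored 18.7 and 20.6 in HSCs, 12.9 and 14.6 in LSCs, and 16.8 and 13.7 in Alox5-/- LSCs. Epc2 differed by -5.93 ± 1.53 (SE; limma adjusted p = 0.999) in LSC minus HSC. Meaf6, a small subunit of several acetyltransferase complexes, scored 19.7 and 20.1 in HSCs, 16.9 and 15.7 in LSCs, and 18.1 and 16.4 in Alox5-/- LSCs. Its difference was -3.60 ± 1.28 (limma adjusted p = 0.999). Neither passed over all probe sets, and in Alox5-/- LSC versus LSC 0 of the 14 had an unadjusted p under 0.05 (3.48% of all probe sets). In the single contrast 1 of the 14 did (3.1% of all), which was Epc2 again (-3.73 ± 1.33, SE; limma adjusted p = 1.00). The list's median of LSC minus HSC was -1.32, beside -0.47 over all probe sets.

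The symbols H2afz and H2afv, for the genes that encode H2A.Z itself, were given to no probe set in the platform annotation. Other names of these genes were not searched, so H2A.Z was not analysed here. Of the chaperones and readers of H2A.Z, which include the H2A.Z-removing chaperone Anp32e and the bromodomain protein Brd2, 5 genes had values. All 5 were below 0 in LSC minus HSC (median -1.64), beside 62.9% of all probe sets and a median of -0.47, and 0 of 5 had an unadjusted limma p under 0.05 in any comparison. The INO80 complex shares the Ruvbl ATPases and remodels H2A.Z nucleosomes. It had 11 genes with values and a median of 0.21 in LSC minus HSC. Of its probe sets 5 of 11 were below 0, against 62.9% of all. In Alox5-/- LSC versus LSC 1 of its 11 probe sets had an unadjusted p under 0.05, against 3.48% of all. This was Mcrs1, at 15.9 and 15.2 in HSCs, 17.7 and 16.8 in LSCs and 14.7 and 14.1 in Alox5-/- LSCs (-2.82 ± 1.12, SE; limma adjusted p = 1.00). Both LSC arrays of Mcrs1 were above the other 4, as they were for Vps72. Among R2TP and HSP90 co-chaperone partners of the Ruvbl ATPases, 0 of 11 probe sets had an unadjusted p under 0.05 in any comparison. Of all probe sets 4.78% did in LSC versus HSC, 3.48% in Alox5-/- LSC versus LSC and 3.1% in the single contrast. Of the 11, 8 were below 0 in LSC minus HSC (median -0.70), against 62.9% of all (median -0.47). SWI/SNF is a remodeller family that does not exchange H2A.Z. Among its subunits 17 of 21 probe sets were below 0 in LSC minus HSC, against 62.9% of all. Their median was -0.70, beside -0.47. There 1 of the 21 had an unadjusted p under 0.05 (4.78% of all probe sets), the ATPase gene Smarca4 (2.99 ± 1.19, SE; limma adjusted p = 0.999). Smarca4 scored 11.0 and 12.9 in HSCs, 14.1 and 15.8 in LSCs, and 13.3 and 13.3 in Alox5-/- LSCs. Its LSC arrays too were above the other 4, which held in one direction or the other for 9.81% of all probe sets.

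Promoter windows from RefSeq (GRCm38.p6, 250 bases before to 50 after the annotated start) were found for 8 of the 9 genes, Vps72 being the gene without one, and are shown for the sequence feature that several members share. Each window was searched on both strands for 6 motifs: CCGGAAG (ETS), GGGCGGG (SP/KLF), CCAAT (NF-Y), GCGCATGC (NRF1 core), AAGATGGC (YY1) and TGACGTCA (CRE). No motif overlaps are implied by these letters, and a match describes the sequence only. The ETS letters were found in 3 of 8 members (Actr6, Dmap1 and Znhit1), against 12.9% of 17492 protein-coding genes with a window. GGGCGGG was found in 4 of 8 members (36.9% of all genes) and CCAAT in 4 of 8 (42.3%). GCGCATGC was found in Yeats4 (3.94% of all genes), AAGATGGC in Znhit1 (3.57%) and TGACGTCA in 0 of 8 (2.54%). Actr6 and Dmap1 each held 2 copies of CCGGAAG. The stretches around it are given 5′ to 3′ on the gene's strand (minus for all 3 genes) with the motif in capitals, at chr10:89732331-89732377 and chr10:89732287-89732333 for Actr6, chr4:117682261-117682307 and chr4:117682221-117682267 for Dmap1, and chr5:136986886-136986932 for Znhit1.
Actr6, upstream copy: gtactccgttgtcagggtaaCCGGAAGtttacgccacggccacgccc
Actr6, downstream copy: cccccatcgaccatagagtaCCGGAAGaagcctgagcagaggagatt
Dmap1, upstream copy: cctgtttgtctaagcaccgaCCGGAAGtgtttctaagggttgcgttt
Dmap1, downstream copy: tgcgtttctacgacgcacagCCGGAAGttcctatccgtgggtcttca
Znhit1: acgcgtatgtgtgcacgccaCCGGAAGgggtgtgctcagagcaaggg
LSC minus HSC was -4.40 for Actr6, -2.36 for Dmap1 and -2.47 for Znhit1. Among the members whose windows lack the ETS letters, it was below 0 for Ep400, Ruvbl1, Ruvbl2 and Yeats4 and above 0 for Srcap (1.74). Of all probe sets tested 62.9% were below 0, and a link between motif and score was not tested.

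Several libraries moved the background that these counts are read against. The count of probe sets at an unadjusted p under 0.05 in LSC versus HSC rose to 1699 when HSC replicate 1 was left out and dropped to 681 when LSC replicate 1 was. In Alox5-/- LSC versus LSC it was 1396 without Alox5-/- LSC replicate 2, and in the single contrast 1270 without that array. Of the probe sets at that p in LSC versus HSC, 79.2% had lower LSC scores as deposited and 57.3% after centring. In Alox5-/- LSC versus LSC the shares lower in Alox5-/- LSCs were 75.6% and 51.6%. As deposited, that share was 23.1% (322 of 1396) without Alox5-/- LSC replicate 2 and 91.7% without Alox5-/- LSC replicate 1, so 1 array turned the direction. Cell type markers were read as summed scores. These sums were not centred. Alox5-/- LSC replicate 2, which had the lowest array median (14.5), also had the lowest sums of stem and progenitor, B cell, myeloid and erythroid markers. For 6 stem and progenitor markers the sum ran from 101.9 to 103.0 in HSCs, 104.4 to 104.9 in LSCs and 96.4 to 102.1 in Alox5-/- LSCs. The LSC arrays were highest, but only slightly above HSC replicate 2 (103.0). Of the 5 B cell markers with values, among them Cd79a, the sum ran from 79.0 to 87.0 in HSCs, 69.9 to 70.8 in LSCs and 64.6 to 76.7 in Alox5-/- LSCs. For 9 myeloid markers it ran from 122 to 144, 129 to 135 and 112 to 133 in the same order, and for 4 T cell markers from 66.7 to 67.8, 66.2 to 67.8 and 62.8 to 64.7. For 3 of 6 erythroid markers with values the ranges were 47.2 to 48.9, 45.9 to 50.04 and 42.3 to 47.1, and for 3 megakaryocyte markers 42.5 to 46.4, 48.8 to 50.2 and 42.5 to 49.0. No marker with values was at 0 on any array, and the part of any of these cell types in the differences of Vps72 and the other members was not tested.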

How the data were processed

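Per the labels' protocols, total RNA was amplified by the Affymetrix whole-transcript sense target assay and labelled with biotin; 6 arrays were read. The deposited values are scores, 1 per probe set and array. Affymetrix Expression Console 1.1 and RMA are named in the submitters' processing notes; the unit, the normalization and the genome build are not given in the sources used here. Of 35557 probe sets 34499 had values. Platform annotation gave 1 symbol to 21789 probe sets, and 21601 of these with values (19934 genes) were tested; no filter on low scores was used.

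Each probe set was fitted on the deposited scores with limma 3.58.1 (R 4.3.3) with a mean per group over all 6 arrays and 3 residual degrees of freedom. The prior variance followed the mean score. Tests were two-sided, adjusted by Benjamini-Hochberg over all probe sets, with a threshold of 0.05. Code was tested on simulated data. The members, the lists and the pattern contrast were chosen with earlier results of these data known. All 9 members are reported, partner probe sets at an unadjusted p under 0.05 and the 6 neighbours are named, and likeness names the 5 genes with the highest r; the other neighbours' values stand as a range. Same-numbered arrays did not deviate together (r of -0.06 to 0.00), so the titles' replicate numbers were not taken as pairs. Other scalings, filters and left-out arrays were tried. The number of arrays limits the precision.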

Additional observations from a re-analysis of the deposited data

How the results depend on the processing

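With every alternative tried, 0 probe sets passed at an adjusted limma p under 0.05 in each of the 3 comparisons. The alternatives were centring, quantile normalization, log2(score + 1), 1 probe set per gene, the 25th percentile filter, 1 prior variance, the replicate block and each array left out. The count of members other than Vps72 at an unadjusted limma p under 0.05 in LSC versus HSC was 1 of 8 after centring and 1 of 8 after quantile normalization (Actr6 in each). Of all 21601 probe sets, 1109 and 1150 had such a p. With 1 array left out the count was 0 to 2 in LSC versus HSC, beside 681 to 1699 of all probe sets. In Alox5-/- LSC versus LSC it was 0 to 1, beside 605 to 1396. In the single contrast it was 0 to 2, beside 606 to 1270. Over all alternatives the 8 members' adjusted limma p ran from 0.611 to 1.00 in LSC versus HSC, from 0.667 in Alox5-/- LSC versus LSC and from 0.801 in the single contrast. The Ruvbl1 difference in LSC versus HSC turned to 0.17 after centring and 0.26 after quantile normalization, and ran from -2.10 to 1.35 with 1 array left out. In Alox5-/- LSC versus LSC, leaving out 1 array gave -0.23 to 5.19 for Ruvbl2, -0.45 to 4.79 for Ep400 and -1.47 to 3.42 for Actr6; the cause was not tested. With the replicate block 884, 635 and 586 probe sets had an unadjusted p under 0.05 in LSC versus HSC, Alox5-/- LSC versus LSC and the single contrast, against 1033, 751 and 669 without it, and 0 of the 8 members did in any of them. The 25th percentile filter left out Vps72, Ruvbl1, Yeats4 and Znhit1. Vps72 ran from 7.90 to 8.72 in LSC minus HSC and from -9.19 to -7.08 in Alox5-/- LSC minus LSC with 1 array left out. A fit with 1 array in a group assumes that it varies like the other groups.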
